A study of Homo sapiens with 4 samples.

Results

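The genes described here encode the protein components of the cytosolic ribosome. They were chosen by symbol among protein-coding genes, as RPL or RPS followed by a number with an optional A, X or L ending, together with RPLP0, RPLP1, RPLP2 and RPSA, and without the RPS6K kinases, Y-linked genes and pseudogenes. The rule gave 82 genes of 57820 in the annotation, 50 for the large subunit and 32 for the small subunit. Of these, 5 genes (RPL32, RPL15, RPSA, RPL14 and RPL29) start below position 57120000 of chromosome 3 on GRCh37, within the short arm, and are called the 3p genes. The other 77 are elsewhere, among them RPL24, RPL39L and RPL35A on the long arm (3q) of the same chromosome. The position of the boundary had been drawn from these same libraries, so the values of the 3p genes are a description.

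Transcripts were measured by stranded RNA-seq of polyadenylated RNA in 4 libraries of HAP1, a nearly haploid human cell line. The 2 dKO libraries came from untreated cells lacking RING1A and RING1B, the enzymes through which Polycomb repressive complex 1 places ubiquitin on histone H2A. The 2 tKO libraries came from untreated cells that lacked BAP1, the enzyme that removes this ubiquitin, in addition to RING1A and RING1B, so both genotypes share the RING1A/B deficiency. RING1A and BAP1 were interrupted by an inserted STOP cassette in picked clones, RING1B-deficient cells were bought, and which clone gave which library was not given in the sources used here. P-values measure the spread between these libraries.

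Each ribosome contains its proteins in near equal number, and cells transcribe the genes for them at high and coordinated levels from many separate chromosomal sites. Vertebrate ribosomal protein mRNAs typically begin with a C followed by a stretch of pyrimidines, the 5′ terminal oligopyrimidine (TOP) motif, through which mTOR signalling controls their translation. Most of these genes have many processed pseudogenes, copies of the spliced mRNA inserted elsewhere in the genome, with which their reads can be shared.

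The start regions of the 3p genes are shown because these genes differed more between the tKO libraries than any other tested member. They also show the pyrimidine run that these genes do or do not share with the other members. The windows are from RefSeq on GRCh38.p14, reach from 60 bases before the annotated start to 30 bases after it, and are written 5′ to 3′ on the strand of the gene. Capitals mark the longest run of at least 7 pyrimidines that begins with C and starts within 15 bases of the annotated start. RPL32 and RPL15 had 3 annotated starts each, and for such genes the window with the longest run was chosen. The windows are chr3:12841536-12841625 (minus strand) for RPL32, chr3:23917072-23917161 (plus) for RPL15, chr3:39406660-39406749 (plus) for RPSA, chr3:40457279-40457368 (plus) for RPL14 and chr3:51995866-51995955 (minus) for RPL29.
RPL32: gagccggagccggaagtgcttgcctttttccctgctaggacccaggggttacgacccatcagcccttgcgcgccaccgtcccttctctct
RPL15: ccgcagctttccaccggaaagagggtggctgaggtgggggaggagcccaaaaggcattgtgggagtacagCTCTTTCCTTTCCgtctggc
RPSA: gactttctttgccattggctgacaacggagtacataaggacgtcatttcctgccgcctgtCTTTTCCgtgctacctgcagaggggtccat
RPL14: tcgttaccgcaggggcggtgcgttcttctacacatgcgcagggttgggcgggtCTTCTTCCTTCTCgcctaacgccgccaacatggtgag
RPL29: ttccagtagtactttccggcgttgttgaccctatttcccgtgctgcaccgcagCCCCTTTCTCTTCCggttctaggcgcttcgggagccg

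Such a run was found near the start of 4 of the 5 3p genes. In the RPL32 window a pyrimidine stretch lies at the 3′ end, beyond 15 bases from the start. The promoter table, which reaches from 250 bases before to 50 bases after each start, matched 65 of the 82 members, and 55 of these (84.6%) had a run by the same rule on the sense strand, against 20.8% of 27305 genes. Other short motifs were searched on both strands of the same windows. For the run and for these motifs a gene counted if any of its windows matched, so more annotated starts gave more chances. CCGGAAG, the core bound by ETS factors, was in 35.4% of the members and 12.2% of all genes, and AAGATGGC, part of the YY1 motif, in 9.23% against 3.52%. The GC box GGGCGG was in 39 of the 65 members and 48.3% of all genes, the TATA box TATAAA in 9.23% of the members against 14.0% and the E-box CACGTG in 6.15% against 8.77%. A match of letters in a window is a description and not a bound site, and the motif shares did not separate the 3p genes, of which 2 had CCGGAAG and 4 had GGGCGG.

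Libraries held between 16054590 and 18455410 counts in genes. Counts on BAP1 were 2046 and 2010 in dKO against 158 and 107 in tKO, a log2 fold change of -3.77 (limma adjusted p = 0.0065). BAP1 itself starts at position 52435024 of chromosome 3, within the same stretch as the 3p genes. Of 12 markers of blood, epithelial, endothelial and fibroblast cells found in the table, 10 were below 1 CPM (counts scaled to the size of the library) in every library, and their summed level was 11.6 to 14.2 CPM in dKO and 11.5 to 14.0 CPM in tKO, most of it COL1A1. In bulk libraries a smaller number of transcribing cells and less RNA per cell cannot be told apart.

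The ribosomal protein genes made up a similar share of transcripts in all libraries. Their summed share of the counts, after TMM scaling, was 4.14% and 4.44% in dKO, 4.53% in tKO 1 and 4.41% in tKO 2. The groups overlapped, with a mean of 4.29 ± 0.211% (SD, n = 2) in dKO and 4.47 ± 0.0859% (SD, n = 2) in tKO (two-sided exact permutation p = 0.667). With 2 libraries against 2 this test cannot go below 0.333. Large subunit genes took 61.3% and 61.5% of that sum in dKO and 61.4% and 60.9% in tKO, so that the balance of the subunits at the RNA level varied by less than 1 percentage point.

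Within each library the members differed far more from each other than any member differed between genotypes. Per kilobase of the canonical transcript (RPKM, from CPM scaled by TMM), the mean level over the 4 libraries had a median of 420. Among the highest 5 values were those of RPL30 (1598 RPKM) and RPL19 (1363 RPKM) of the large subunit, RPLP2 (1340 RPKM), an acidic protein of the stalk that recruits translation factors, and RPS24 (1329 RPKM). This order depends on the length used. For 24 members the canonical transcript is over 3 times as long as the coding sequence, and 1 of the highest 5 stayed among the highest 5 per kilobase of coding sequence and also 1 per kilobase of all exons. The lowest 5 were the same by all 3 lengths, and included RPL3L, RPL10L, RPS10 and RPL7.

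Low core members were low in each library. RPS10 had 60 and 36 counts in dKO and 49 and 39 in tKO, and RPL7 had 160 and 174 in dKO and 160 and 102 in tKO. RPS27 had 63 and 67 counts in dKO and 78 and 66 in tKO. All of them share much of their sequence with other places in the genome.

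Because reads were counted only where they mapped to 1 place, every 100-base window of each canonical transcript was looked up in the GRCh37 genome. The paper states 100-base paired reads for these libraries, so a pair can be placed by more sequence than 1 window. The windows are therefore a guide and not a measure of which reads were lost. RPL21, with 100% of its windows elsewhere, still had 334 and 330 counts in dKO and 290 and 290 in tKO. For 24 members no window occurred a second time. The 51 members with under 20% of such windows had a median of 677 RPKM, the 19 members with 20% to 50% had 415 RPKM, and the 12 members with 50% or more had 42.6 RPKM and at most 226 RPKM. RPL21 had 100% of its windows elsewhere, RPS27 94.1%, RPL39 92.8%, RPL9 80.8%, RPS10 67.3%, RPL7 59.9% and RPSA 59.1%. Levels of these members are therefore levels of uniquely placed reads, and their rank among the members is uncertain. RPS10, RPL17 and RPL36A also overlap read-through transcripts on their own strand (RPS10-NUDT3, RPL17-C18orf32 and RPL36A-HNRNPH2). Reads falling in both were not assigned to either.

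**Figure D1:**
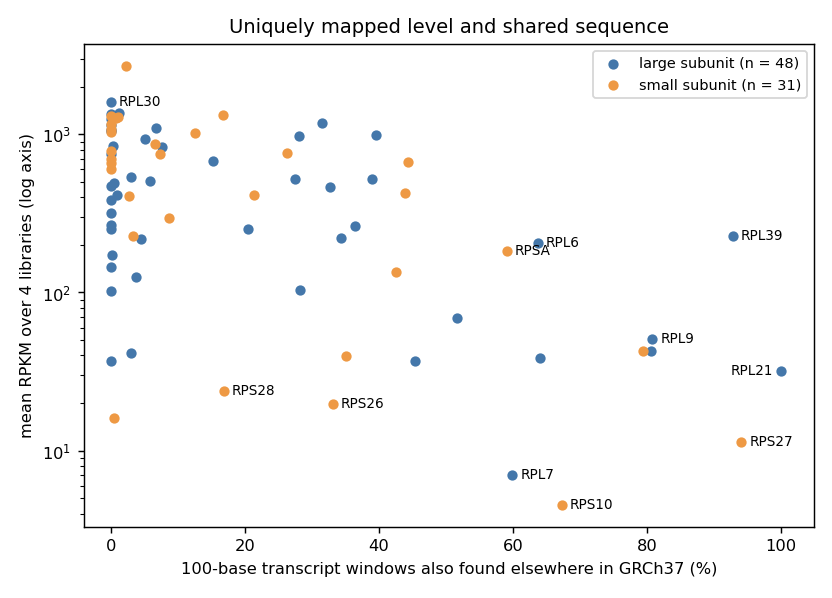
Mean level per kilobase of canonical transcript over the 4 libraries (vertical, log axis, RPKM) of the 79 tested members against the percentage of their 100-base windows that occur elsewhere in GRCh37 (horizontal), coloured by subunit. The 12 members at 50% or more lie at or below 226 RPKM, while members near 0% span most of the range of levels, RPL30 among them at 1598 RPKM.

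A member was tested where its CPM was above 0.5 in at least 2 libraries. This held for 79 of 82 members, 48 of the large and 31 of the small subunit. Those not tested included the paralogs RPL3L (2 counts in dKO 1 and 0 elsewhere) and RPL10L (1 count in dKO 1 and 0 elsewhere). RPL3L is known as a striated muscle paralog of RPL3, and RPL10L as a testis paralog of RPL10.

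Setting tKO against dKO addresses what BAP1 contributes to transcription once PRC1 activity is gone. By limma, 0 of the 79 tested members passed both thresholds (adjusted p under 0.05 and a log2 fold change over 1 in either direction), where 0.0132% of all 15136 tested genes did. The count was also 0 by limma-voom, the edgeR quasi-likelihood test and DESeq2. At an unadjusted p below 0.05, limma gave 5 members against 3.55% of all genes, limma-voom 5, the edgeR quasi-likelihood test 5 and DESeq2 2. The 5 of limma were RPL17, RPL9, RPL35, RPL38 and RPL37A, all of the large subunit, all off 3p and all higher in tKO (1.4% of all genes had such a p and were higher), and the smallest adjusted p over all members was 0.996.

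The fold changes of the members were small and mostly of one sign. Off 3p the median log2 fold change (tKO over dKO) of 74 members was 0.09, with 62 above 0 and 12 below, beside a median of -0.0014 over all tested genes. Both tKO libraries were above both dKO libraries in 34 of these members (15.8% of all genes), and below both in 3 (15.9% of all genes), namely RPL23A, RPL21 and RPS27L. In the other 37 the genotypes overlapped. The shift was of the same size as a difference between replicates, since dKO 2 stood above dKO 1 by a median of 0.10 on the log2 scale over the same members. Without dKO 1 the median log2 fold change was 0.05, and without dKO 2 it was 0.13. The members are not independent of each other here, since all were measured in the same 4 libraries. A lean above 0 was not particular to them. Of the lists described below, 29 of 37 ribosome biogenesis factors and 57 of 75 mitochondrial ribosomal protein genes were also above 0.

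The intervals limit how large a change these libraries allow. Off 3p, the 95% interval of the log2 fold change lay within 0.5 on either side of 0 for 68 of 74 members and within 1 for all 74. The 6 members with wider intervals had a mean of at most 37.1 CPM, such as RPS10 (interval from -0.72 to 0.88) and RPS27 (-0.28 to 0.89).

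Large subunit members off 3p had a median log2 fold change of 0.11 over 44 genes and small subunit members 0.08 over 30 genes. RPL5 and RPL11, which join the 5S rRNA and can bind MDM2, had 18984 and 20312 (RPL5) and 17687 and 19087 (RPL11) counts in dKO. In tKO they had 18846 and 18744 (RPL5) and 18490 and 17753 (RPL11) counts. In CPM both tKO libraries were above both dKO libraries for each gene, with log2 fold changes of 0.11 ± 0.087 (SE) and 0.15 ± 0.090 (SE) that did not pass the test (limma adjusted p = 0.996).

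RPL3, which lies close to the peptidyl transferase centre, had 1493 and 1663 CPM in dKO and 1601 and 1376 CPM in tKO, so that the genotypes overlapped. Its log2 fold change of -0.09 ± 0.11 (SE) was among the 3 lowest off 3p, with those of RPL23A at -0.09 ± 0.093 and RPL7 at -0.21 ± 0.26. RPL23A, near the exit of the peptide tunnel, had 219.9 and 223 CPM in dKO and 199 and 219 CPM in tKO. The separation of RPL23A between genotypes was below 1 CPM at the nearest libraries, its log2 fold change was 0.03 with unstranded counts, and none of the 3 genes passed the test.

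The largest log2 fold changes off 3p were those of RPL17, RPL9 and RPS27. RPL17 had 341 and 396 counts in dKO and 433 and 444 in tKO, which gave 18.6 and 21.8 CPM against 26.7 and 27.5 CPM, a log2 fold change of 0.42 ± 0.15 (SE). RPL9 had 34.8 and 29.2 CPM in dKO and 42.5 and 40.4 CPM in tKO, a log2 fold change of 0.38 ± 0.14 (SE). RPS27 had 3.44 and 3.70 CPM in dKO and 4.81 and 4.09 CPM in tKO, 0.31 ± 0.24 (SE).
In these genes the genotypes did not overlap, yet none passed the test (limma adjusted p = 0.996), and each has over 60% of its windows elsewhere in the genome. RPL17 shares 64.1%.

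Among small subunit members, RPS6, the substrate of S6 kinase downstream of mTOR, had 1353 and 1495 CPM in dKO and 1525 and 1522 CPM in tKO. RPS19 had 1161 and 1206 CPM in dKO and 1218 and 1307 CPM in tKO, and RPS27A, made as a fusion with ubiquitin, had 224 and 229.9 CPM in dKO and 239 and 238 CPM in tKO. Their log2 fold changes were 0.10, 0.09 and 0.07, none past the test.

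The P stalk proteins differed in how their libraries lay. RPLP0, the base of the stalk, had 1015 and 1145 CPM in dKO and 1115 and 1127 CPM in tKO. RPLP1 had 943 and 1044 CPM in dKO and 975 and 992 CPM in tKO. RPLP2 had 570.1 and 607 CPM in dKO and 580.3 and 719 CPM in tKO, so that tKO 2 stood above the other 3 libraries. The log2 fold changes were 0.06, -0.01 and 0.14, and without tKO 2 that of RPLP2 was -0.02.

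The 3p genes differed from the rest in 1 library. RPL32 of the large subunit (ENSG00000144713.8, GRCh37 chr3:12875984-12883081, minus strand) had 10760 and 11422 counts in dKO, 11196 in tKO 1 and 5436 in tKO 2. RPL15, a large subunit protein (ENSG00000174748.14, chr3:23958082-23965865, plus strand), had 10105 and 11756 counts in dKO, 10877 in tKO 1 and 4964 in tKO 2. In both genes tKO 2 stood apart below the other 3 libraries, while tKO 1 lay with dKO.

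The same held for the other 3p genes. RPSA, a small subunit protein also described as the laminin receptor (ENSG00000168028.9, chr3:39448207-39467746, plus strand), had 4159 and 4258 counts in dKO, 4212 in tKO 1 and 1897 in tKO 2. RPL14 (ENSG00000188846.9, chr3:40498783-40510078, plus strand) had 5888 and 6111 counts in dKO, 5515 in tKO 1 and 2953 in tKO 2. RPL29 (ENSG00000162244.6, chr3:52027538-52029911, minus strand) had 3861 and 4232 counts in dKO, 3622 in tKO 1 and 2049 in tKO 2.
RPL29 is the member nearest below the boundary, and RPL24, at 101399935, the nearest above it.

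**Figure D2:**
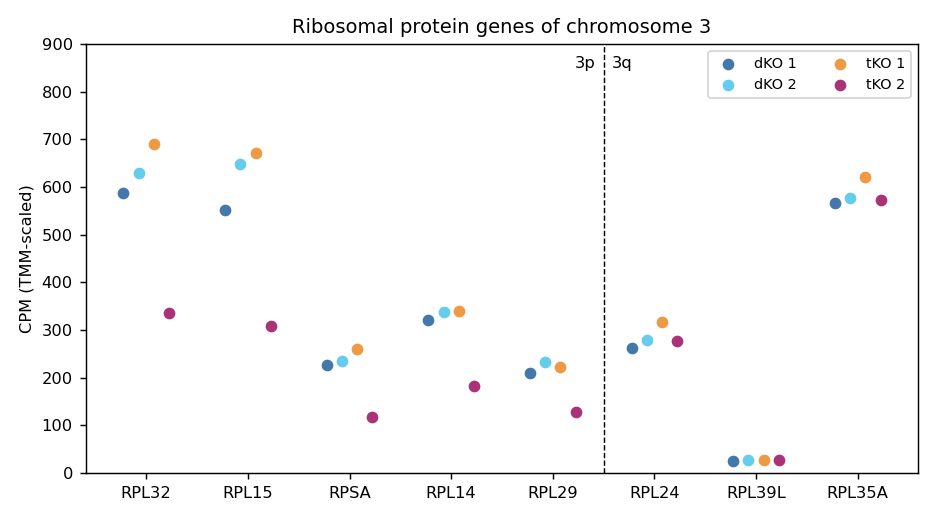
Level (vertical, CPM scaled by TMM) of each of the 8 members on chromosome 3 in each library, ordered along the chromosome from left to right, with the 5 3p genes left of the dashed line and the 3 genes of 3q right of it. In RPL32 the library tKO 2 is at 336 CPM, below dKO 1 at 587 CPM, and tKO 2 is the lowest library in each 3p gene.

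In units of CPM, RPL32 was at 609 ± 30.3 (SD, n = 2) in dKO, at 689.9 in tKO 1 and at 336 in tKO 2. RPSA was at 231 ± 5.59 (SD, n = 2) in dKO, at 259.5 in tKO 1 and at 117 in tKO 2. Relative to the dKO mean of log2 CPM, tKO 2 was at 55.3% for RPL32, 51.4% for RPL15, 50.9% for RPSA, 55.6% for RPL14 and 57.2% for RPL29, or -0.81 to -0.97 on the log2 scale with a median of -0.85. The library tKO 1 was at 0.0092 to 0.18 on that scale, with a median of 0.16, so that it did not share the difference.

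At the 3p genes the groups overlapped in 5 of 5. Over all genes, both tKO libraries were above both dKO libraries in 15.8% and below both in 15.9%. The boundary was drawn from these libraries, so the overlap and the standard errors are a description with no test. The log2 fold changes were -0.34 for RPL32, -0.40 for RPL15, -0.40 for RPSA, -0.40 for RPL14 and -0.40 for RPL29, with standard errors from 0.24 to 0.33. Their 95% intervals reached from -1.18 to 0.38.

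The result turned on the library. Without tKO 2 the log2 fold changes of the 3p genes lay between 0.0092 and 0.18 and 0 members in all passed an adjusted p below 0.05 by limma (8 at an unadjusted p below 0.05, where 10.6% of all genes in that fit were). Without tKO 1 the log2 fold changes of the 3p genes lay between -0.81 and -0.97, for which no p is given because the boundary was drawn from these libraries. Off 3p, RPS15 was the 1 member with an adjusted p below 0.05 in that fit, higher by 0.33 (limma adjusted p = 0.0327), where 2.38% of all genes were higher. In such a fit the lone tKO library is assumed to vary like the dKO pair, and the p-value compares a library and not a genotype.

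The members on 3q did not share the lower level. RPL24 had 262.6 and 278 CPM in dKO, 316 in tKO 1 and 276 in tKO 2. RPL35A had 567 and 577 CPM in dKO, 621 in tKO 1 and 573 in tKO 2. RPL39L, the paralog of RPL39 known from male germ cells, had 24.6 and 27.7 CPM in dKO, 27.5 in tKO 1 and 27.6 in tKO 2.
Their log2 ratios of tKO 2 to dKO were 0.03, 0.0032 and 0.08.

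The 3p members were a small part of a longer stretch. All 358 tested genes that start below the boundary had a median log2 ratio to dKO of -0.92 in tKO 2, with quartiles of -1.09 and -0.79, and of 0.0075 in tKO 1. The 5 ribosomal protein genes, at -0.81 to -0.97, lay inside that middle range. Off 3p, the lowest ratio in tKO 2 among the 57 members above 100 CPM was -0.20, that of RPL3. Over all tested members 6 were lower in tKO 2 by more than 0.5 (8.25% of all genes), the 5 on 3p and RPL7, which had 102 counts there, and 0 were lower by that much in tKO 1 (5.92% of all genes). What underlies the lower level of the stretch in tKO 2 was not tested.

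**Figure D3:**
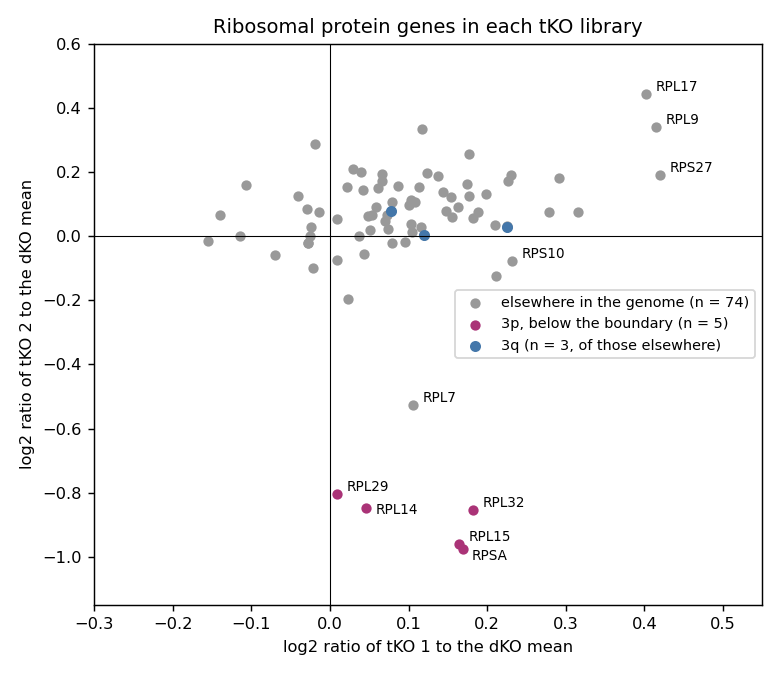
Log2 ratio of each of the 79 tested members to the dKO mean in tKO 2 (vertical) against tKO 1 (horizontal). The 5 3p genes lie between -0.81 and -0.97 in tKO 2 and between 0.0092 and 0.18 in tKO 1, while the 74 others gather near 0 on both axes, with RPL7 lowest among them at -0.53.

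The lower 3p genes went with a different composition of the ribosomal protein transcripts in tKO 2 at a similar sum. The 5 genes contributed 4.59% and 4.70% of the summed CPM of all members in dKO, 4.81% in tKO 1 and 2.43% in tKO 2. The sum of the members off 3p was 39482 and 42275 CPM in dKO and 43162 and 43060 CPM in tKO (two-sided exact permutation p = 0.333, the smallest possible). Within a library, the median log2 CPM of the 3p genes minus that of the other members was -0.42 and -0.45 in dKO, -0.46 in tKO 1 and -1.41 in tKO 2. The mean of this measure differed by -0.50 between genotypes and by -0.02 without tKO 2, a description with no test since the boundary came from these libraries.

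Apart from the 3p genes, the members kept close to one another between libraries. Among the 57 members off 3p above 100 CPM, the log2 ratio of tKO 2 to tKO 1 had an SD of 0.12 across genes. It was 0.22 for all 2491 genes above 100 CPM outside the same stretch of 3p. Those 2491 genes include the members, leave out no other region, and were not matched to the members in level beyond that cut. For dKO 2 against dKO 1 the SD was 0.07 against 0.13. The tKO libraries were over 0.25 apart in 3 of these members (17.8% of those 2491 genes), and the dKO libraries in 0 (7.79%). The 3 were RPL10A, RPL22 and RPLP2.

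RPL10A of the large subunit had 356 and 405 CPM in dKO, 439.96 in tKO 1 and 348 in tKO 2, a spread of the tKO libraries that took in both dKO libraries. RPL22 had 207 and 214 CPM in dKO, 196 in tKO 1 and 235 in tKO 2. Of the members off 3p at any level, RPL7, RPS10 and RPL10A had the widest gaps between tKO libraries, the first 2 at low counts.

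Paralogs were compared by the share each takes of the summed RPKM of its pair. The partners RPL7L1, RPL22L1 and RPL26L1 end in L1 and so are outside the symbol rule. RPL36AL took 82.0% and 83.6% of its pair with RPL36A in dKO and 81.0% and 82.5% in tKO, and RPL39L took 13.1% and 14.6% of its pair with RPL39 in dKO and 14.0% and 14.3% in tKO. RPL26L1 took 4.49% to 5.96% of its pair with RPL26 over the 4 libraries. These shares differed between genotypes by no more than between replicates. They are shares of uniquely placed reads, which the partners lose unequally, and do not give the share of transcripts. RPL36A had 45.3% of its windows elsewhere in the genome and RPL36AL 0.17%. RPL39 had 92.8% and RPL39L 0%.

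RPS27L, a paralog of RPS27 known as a p53 target, took 63.3% and 60.3% of its pair in dKO and 53.4% and 57.6% in tKO. RPL7L1, whose yeast relative acts in early assembly of the large subunit, took 86.9% and 84.7% of its pair with RPL7 in dKO and 86.1% and 91.6% in tKO. RPS27 and RPL7 had few uniquely placed reads, and the shares are of such reads. RPS27L itself had 103 and 97.6 CPM in dKO and 95.4 and 96.3 CPM in tKO.

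RPL22L1 departed from this pattern, in the same library as the 3p genes but from the other arm of the chromosome (170582664 to 170587997). It had 2098 and 2489 counts in dKO, 2434 in tKO 1 and 694 in tKO 2. Its share of the pair with RPL22 was 37.5% and 41.0% in dKO, 45.4% in tKO 1 and 16.5% in tKO 2. RPL22, on chromosome 1, had 3790 and 3887 counts in dKO, 3174 in tKO 1 and 3797 in tKO 2. The log2 fold change of RPL22L1 was -0.64 ± 0.51 (SE) for the genotype (limma adjusted p = 0.996), and its log2 ratio to dKO was -1.54 in tKO 2 and 0.26 in tKO 1, so that the tKO libraries lay on either side of dKO.

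**Figure D4:**
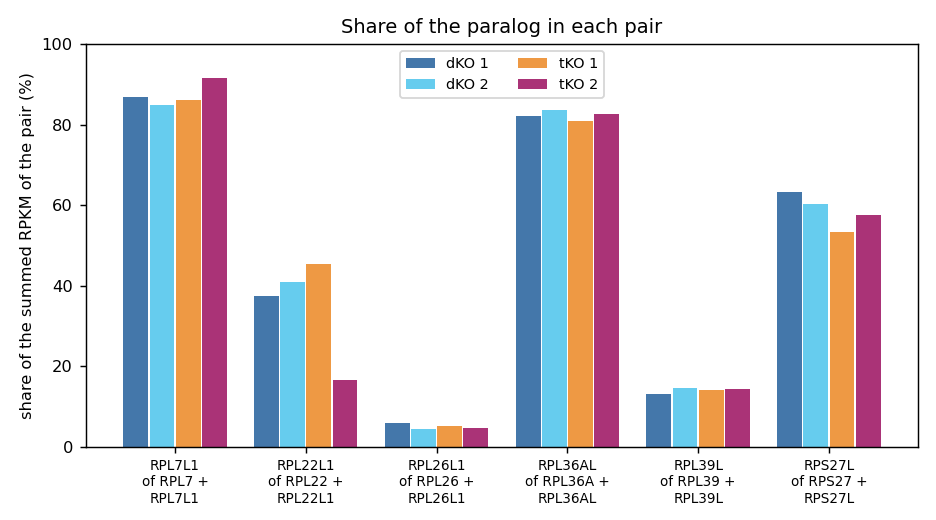
Share (vertical, percent) that the named paralog takes of the summed RPKM of its pair, 1 bar per library, for 6 pairs; the pairs with RPL3L and RPL10L are left out because these had at most 2 counts. RPL22L1 stands at 16.5% in tKO 2 against 37.5% to 45.4% in the other libraries, while RPL36AL, RPL39L and RPL26L1 stay level.

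Ribosomal proteins whose symbols the rule leaves out lay near the members off 3p. RACK1, a scaffold on the small subunit, had 1267 and 1376 CPM in dKO and 1457 and 1408 CPM in tKO, a log2 fold change of 0.12 ± 0.089 (SE). FAU, a fusion of a ubiquitin-like protein with a small subunit protein, had 219 and 247 CPM in dKO and 241 and 238 CPM in tKO, 0.04 ± 0.096 (SE). Neither passed the test.

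The genes that make or regulate ribosomes were examined as lists by the same fit. Of 37 ribosome biogenesis factors, 0 passed the threshold in either direction by limma (0.0132% of all genes did). With an unadjusted p below 0.05 there was 1 (3.55% of all genes). The median log2 fold change was 0.09, near that of the ribosomal protein genes off 3p. The 1 was NOP56, a box C/D snoRNP core protein, with 373 and 362 CPM in dKO and 441 and 429 CPM in tKO, a log2 fold change of 0.24 ± 0.083 (SE, limma adjusted p = 0.996). The lowest was RRP9, a U3 snoRNP protein encoded on 3p, with 84.1 and 68.7 CPM in dKO, 73.6 in tKO 1 and 40.4 in tKO 2. GNL3 (nucleostemin), also on 3p, had 258 and 257.6 CPM in dKO, 269 in tKO 1 and 136 in tKO 2. RRP9 and GNL3 were the 2 biogenesis genes lower in tKO 2 by more than 0.5 (8.25% of all genes).

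Mitochondrial ribosomal protein genes, which serve a separate ribosome, gave 0 past the threshold of 75 tested (0.0132% of all genes). At an unadjusted p below 0.05 there were 0 (3.55% of all genes), and the median log2 fold change was 0.06. Their lowest member, MRPS25 on 3p, had 148 and 142 CPM in dKO, 157 in tKO 1 and 75.6 in tKO 2, and their highest, MRPL53, had 38 and 31 counts in dKO and 38 and 43 in tKO (log2 fold change 0.39 ± 0.29 SE). Of 15 tested translation factors and other TOP mRNAs, 0 passed and 1 had an unadjusted p below 0.05, against the same shares of all genes. This was EEF1A1, the elongation factor that delivers tRNA, at 0.20 ± 0.083 (SE). EEF2, the translocation factor, had 2713 and 2954 CPM in dKO and 3056 and 3778 CPM in tKO, and EIF3L was the lowest at -0.04. The list had a median of 0.05.

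Dedicated chaperones of ribosomal proteins gave 0 past the threshold of 5 (0.0132% of all genes) and 1 at an unadjusted p below 0.05 (3.55% of all genes). This was RPS19BP1, with 64.4 and 54.9 CPM in dKO and 76.4 and 73.6 CPM in tKO (0.33 ± 0.12 SE, limma adjusted p = 0.996), and the lowest was HEATR3 at 0.02. Regulators of ribosomal protein genes and of TOP mRNA translation gave 0 of 10 past the threshold and 0 at an unadjusted p below 0.05, beside the same shares of all genes. They lay between SP1 at -0.14 and RPTOR, a component of mTORC1, at 0.22. By limma-voom, the edgeR quasi-likelihood test and DESeq2 the lists also gave 0.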

How the data were processed

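RNA-seq was made from 4 libraries of HAP1 cells, 2 dKO and 2 tKO, grouped by their labels. The files deposited by the authors hold raw counts of reads for each gene. Per the study's methods and the submitters' processing notes, the authors trimmed adapters with cutadapt 1.12 (Trim Galore 0.4.4), removed ribosomal RNA reads with Bowtie 1.2, and mapped to GRCh37 and counted uniquely mapped reads with STAR 2.5.2b. Counts antisense to the gene, the orientation of the kit, were used.

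Symbols and positions came from GENCODE 44 lifted to GRCh37. Genes above 0.5 CPM in at least 2 libraries (15136) were fitted with limma 3.58.1 on log2 CPM (prior count 2, TMM by edgeR 4.0.16, R 4.3.3), with genotype as the only term and Benjamini-Hochberg adjustment over all of them. Adjusted p-values come from limma except where a sentence names another tool. The prior count understates fold changes of low genes. RPKM used the canonical transcript length. The fit was tested on simulated data. At this depth 3 counts are 0.163 to 0.187 CPM, which covers counting error only. Replicate numbers did not pair the libraries (correlation of deviations 0.0581). Genes named were the 3p members, the 5 highest and lowest by RPKM, the 3 largest and smallest fold changes, the 3 widest tKO gaps, paralog pairs and the extremes of each list; further members were named to describe roles after their values were seen, and some members that the rule names are not reported here. Members, lists and the boundary were chosen with earlier results of these data known. Alternatives were limma-voom, edgeR quasi-likelihood, DESeq2 1.42.0, other scalings, filters, strand and prior count, a replicate block and leaving out each library.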

Additional observations from a re-analysis of the deposited data

Results flagged for a closer look

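Ribosomal protein pseudogenes lie outside the comparisons above, and uniquely placed reads were counted over them at levels above what 3 counts allow (0.163 to 0.187 CPM). RPL10P3 had a mean of 179.7 CPM over the 4 libraries (174, 182, 170.3 and 192 CPM in dKO 1, dKO 2, tKO 1 and tKO 2), RPS28P7 had 109.9 CPM and RPS2P46 had 80.1 CPM. None separated the genotypes in limma (log2 fold changes of 0.02, -0.07 and 0.17, adjusted p = 0.996). Of the counts on RPS28 and its pseudogenes, 77.6% were on the pseudogenes. Summed over 1578 annotated pseudogenes, of which 725 had a count, counts amounted to 0.0567% to 0.0603% of a library. Whether these reads come from transcripts of the pseudogenes or of their parent genes was not tested.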

How the results depend on the processing

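The 0 members called by limma stayed 0 under the other tests, scalings, filters, strand and prior count tried, and without each library. A subset of members with under 20% of windows elsewhere was added after seeing the data. Its count of 0 followed from the 0 over all members and is no further check. With the replicate number as a block the count was 0 of 79, with 2 members at an unadjusted p below 0.05 and a median log2 fold change of 0.08 as without it, and no call changed. The library tKO 2 decided the 3p values. The median log2 fold change of the 3p members ranged from -0.85 to 0.16 over the fits that left out a library, and was 0.16 without tKO replicate 2. Of the named genes whose fold change was at least 1 standard error, 8 turned sign without that library, and the cause was not tested; over the fits that left out a library their log2 fold changes ranged from -0.85 to 0.18 (RPL32), -0.96 to 0.16 (RPL15), -0.97 to 0.17 (RPSA), -0.85 to 0.046 (RPL14), -0.81 to 0.0092 (RPL29), -0.020 to 0.29 (RPLP2), -1.54 to 0.26 (RPL22L1) and -0.94 to 0.12 (MRPS25). Without tKO replicate 1, RPL22L1 was at -1.54, a value that rests on 1 tKO library. Of the fitted values of named genes under alternatives, 587 kept both sign and call. The 3 that no longer passed the threshold were all of BAP1, the named gene called in the main fit. The 1 that newly passed it was of a gene not called there. A further 27, in 16 genes whose fold change was under 1 standard error, turned sign without a change of call, 23 of them without 1 library; RPL7 was at 0.11 and RPL3 at 0.02 without tKO replicate 2. The summed level of the members differed by 0.06 on the log2 scale between genotypes and by 0.01 to 0.11 without 1 library. Low counts of uniquely placed reads limit RPS27, RPS10 and RPL7, at under 200 counts a library, and members absent from unique reads cannot be judged.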
